A study of Mus musculus with 6 samples.

Results

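Genes of the splicing machinery and of related RNA processing complexes were followed by symbol in RNA-seq libraries of regulatory T cells (Tregs) sorted from mouse bone marrow. Members were all symbols that begin with Srsf and a digit, Hnrnp, Snrp, Sf3a or Sf3b and a digit, or Lsm and a digit. The rule found 65 of the 15483 genes in the tables, of which 11 were Srsf, 21 Hnrnp, 11 Snrp, 9 Sf3 and 13 Lsm genes. There were 3 libraries from wild-type mice 3 months after irradiation (IR) and 3 from wild-type control mice. Per the series' design text the sort gate was CD3+CD4+NK1.1-Foxp3+. The labels give neither the dose of irradiation nor the age of the mice, and they do not say whether each replicate was a different animal, so the p-values reflect only how far these libraries vary, which may be technical.

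Splicing removes introns from precursor RNA and is carried out by the spliceosome, which is built from small nuclear ribonucleoproteins (snRNPs). Snrp genes encode the Sm proteins that form a ring on the small nuclear RNAs, and proteins specific to the U1 and U2 particles. Sf3 genes encode the SF3A and SF3B complexes of the U2 particle, which hold the branch point of the intron. Lsm genes encode Sm-like proteins that form rings on U6 small nuclear RNA and on messenger RNA due for decapping. Srsf genes encode serine and arginine-rich (SR) proteins, which bind exons and favour their inclusion, and Hnrnp genes encode proteins that coat nascent transcripts and often oppose them. In T cells such proteins are known for switching exons of the phosphatase gene Ptprc (CD45) on activation.

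The libraries were not of T cell transcripts alone, and markers of several cell types differed between the groups. Of 15 neutrophil markers 11 rose, and their summed level was 102672 to 105736 FPKM (fragments scaled for transcript length and library size) in irradiated libraries, against 70941 to 76229 FPKM in control libraries. That was 21.6% ± 0.258 of all FPKM in irradiated and 16.05% ± 0.299 in control libraries (SD, n = 3 each). Of 12 T cell markers 11 fell, with sums of 278 to 291 FPKM in irradiated libraries, against 466 to 483 FPKM in control libraries. Of 8 Treg markers 7 fell, with sums of 115 to 129 FPKM in irradiated libraries, against 198 to 206 FPKM in control libraries. The T cell markers held 0.0592% of all FPKM in irradiated and 0.102% in control libraries. For Treg markers these mean shares were 0.0250% in irradiated and 0.0436% in control libraries, and for 6 eosinophil markers 0.673% and 1.13%. Marker shares are not shares of cells, and levels of splicing genes below are those of the whole library, not of Tregs alone. The Treg factor gene Foxp3 averaged 12.6 ± 0.795 FPKM in irradiated libraries and 22.6 ± 1.93 FPKM in control libraries (SD, n = 3 each). Of the tested markers, 9 of 9 B cell, 10 of 10 macrophage, 5 of 6 plasmacytoid dendritic cell, 6 of 9 erythroid and 5 of 6 eosinophil genes fell. The B cell marker Igll1 was the single marker listed at 0 in any library. Fewer cells of a type and less RNA per cell cannot be told apart in bulk libraries, and the part of these marker differences in the results for splicing genes was not tested. Relative depth, recovered from the steps between low values, was 81.6% to 92.7% of control replicate 1 in irradiated libraries and 98.5% to 102.9% in the other control libraries.

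Splicing genes stayed close to their control level after irradiation, and few of them passed the test. The limma test was run on log2(FPKM + 1) for every gene whose 6 libraries averaged 1 FPKM or more, and a Benjamini-Hochberg adjusted p below 0.05 was the threshold. Of the 65 members 63 were tested, and 2 rose (Srsf5 and Hnrnph1) while 4 fell (Hnrnpc, Hnrnpa2b1, Hnrnpm and Snrpd2), which is 9.52% of those tested. Over all 10666 tested genes 16.6% were called, 6.29% higher and 10.3% lower, and 19.96% of those with a mean of at least 10 FPKM were called. With median-of-ratios scaling 2 members were higher and 1 was lower. The median log2 change of the tested members was -0.04, against -0.02 for all tested genes. Their median absolute change was 0.09, against 0.15 for all tested genes and 0.13 for those with a mean of at least 10 FPKM. The members' changes ran from -0.36 to 0.39 on the log2 scale. On the log2(FPKM + 1) scale their 95% intervals lay within a 1.5-fold change either way for all 63. So did those of 75.7% of all tested genes and of 88.6% of the 5806 with a mean of at least 10 FPKM. That scale understates the change of low genes, so for them the limit is not one of 1.5-fold in FPKM. The intervals of the low genes Lsm10, Lsm11 and Lsm1 reached down to -0.58, -0.51 and -0.49. The members are abundant transcripts, with a median of 56.8 FPKM against 11.5 FPKM for all tested genes, and their median standard error of 0.07 was below the 0.11 of all tested genes.

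**Figure D1:**
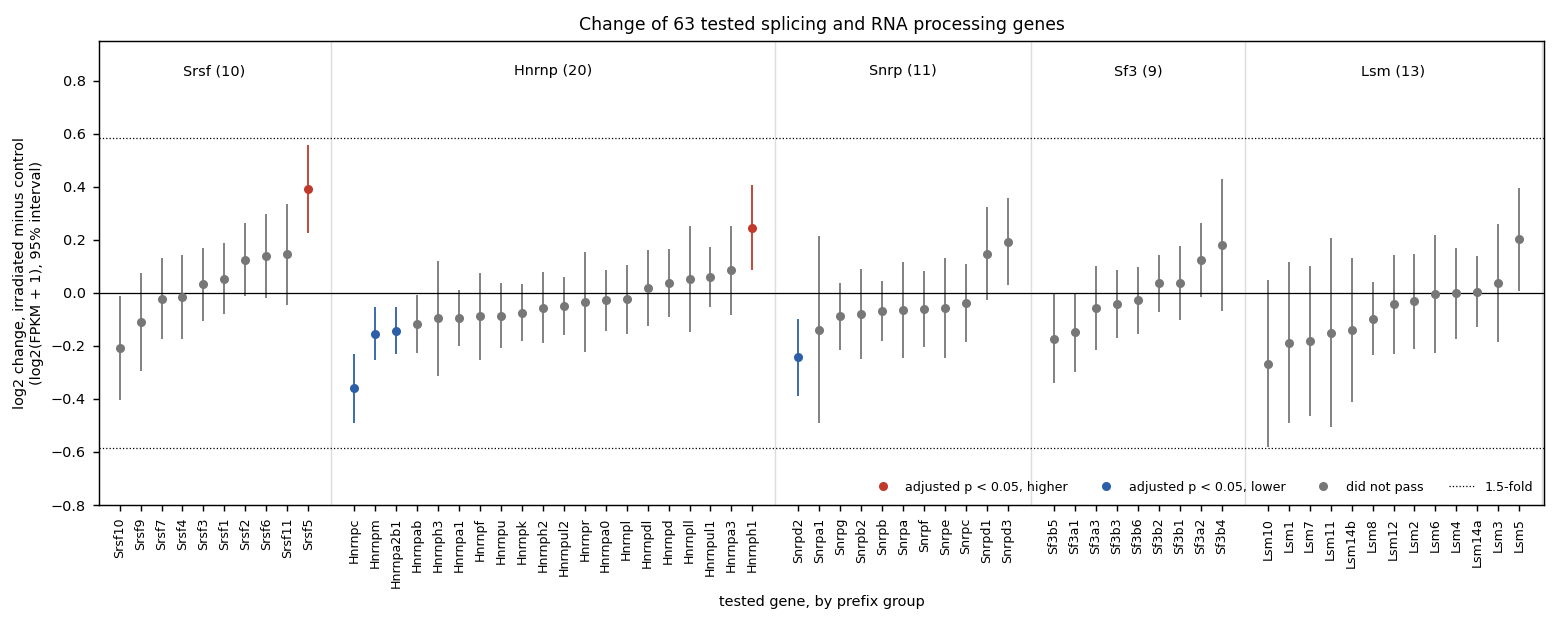
Log2 change (irradiated minus control, log2(FPKM + 1) scale) of the 63 tested members, one point per gene with its 95% interval from limma, ordered by change within each prefix group. Red and blue mark the 2 genes that rose and the 4 that fell at an adjusted p below 0.05, and every interval lies inside the dotted 1.5-fold lines.

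The 5 prefix groups had similar medians and few calls each, where 16.6% of all tested genes were called, 6.29% higher and 10.3% lower. Of 10 tested Srsf genes 1 rose and 0 fell (median log2 change 0.04), of 20 Hnrnp genes 1 rose and 3 fell (median -0.05), and of 11 Snrp genes 0 rose and 1 fell (median -0.07). No call was made among the 9 Sf3 genes (median -0.03) or the 13 Lsm genes (median -0.04). In limma an unadjusted p below 0.05 was reached by 1 gene in each of those last groups, Sf3b5 and Lsm5, and by 11 members in all, where 29.6% of all tested genes reached it. Irradiated and control values did not overlap for 2 of 10 Srsf, 10 of 20 Hnrnp and 1 of 11 Snrp genes. The same held for 1 of 9 Sf3 and 1 of 13 Lsm genes. Without overlap were 33.6% of all tested genes and 37.3% of those with a mean of at least 10 FPKM. Of the 10 Hnrnp genes 2 were higher and 8 lower, where 13.5% of all tested genes were higher and 20.1% lower without overlap. Whether the groups differ from each other was not tested.

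Summed over its genes, the Hnrnp group had 1949, 1944 and 1928 FPKM in irradiated libraries, against 2058, 2022 and 2046 FPKM in control libraries. All irradiated sums lay below all control sums, and the ratio of the means was 0.950. As a share of all FPKM the Hnrnp group held 0.402% ± 0.00421 in irradiated and 0.441% ± 0.0110 in control libraries (SD, n = 3 each). All 65 members together held 0.949% ± 0.0126 in irradiated and 1.006% ± 0.0224 in control libraries. Neither of these shares overlapped between irradiated and control libraries. The Srsf group had sums of 776, 803 and 765 FPKM in irradiated libraries, against 687, 699 and 769 FPKM in control libraries, so that the groups overlapped through control replicate 3. Snrp sums averaged 994 ± 27.9 FPKM in irradiated and 1026 ± 44.0 FPKM in control libraries, with SD over n = 3 each. Sf3 sums averaged 523 ± 8.56 FPKM in irradiated and 525 ± 11.8 FPKM in control libraries, and Lsm sums 343 ± 5.31 FPKM in irradiated and 347 ± 9.13 FPKM in control libraries. The groups overlapped in each of these sums of FPKM. Library totals were 480854 to 485365 FPKM in irradiated and 451444 to 470375 FPKM in control libraries. Any group of constant FPKM would therefore hold a lower share in irradiated libraries, without overlap. The Snrp, Sf3 and Lsm shares were lower in irradiated libraries and did not overlap, which by itself shows no fall of these genes. The Snrp share was 0.206% ± 0.00650 in irradiated and 0.221% ± 0.00672 in control libraries, the Sf3 share 0.108% ± 0.00218 in irradiated and 0.113% ± 0.00216 in control libraries, and the Lsm share 0.0710% ± 0.000797 in irradiated and 0.0749% ± 0.00136 in control libraries (SD, n = 3 each). The Srsf shares overlapped, at 0.158% to 0.166% in irradiated and 0.146% to 0.170% in control libraries. The neutrophil marker share given above was higher in irradiated libraries, and its part in these lower shares was not tested.

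The SR protein gene Srsf5 rose. SR proteins carry a tail of alternating arginine and serine, which their kinases phosphorylate. In the longest GENCODE M21 coding sequence of each gene, pairs of neighbouring arginine and serine codons numbered 4.05 to 23.5 per 100 codons in the 11 Srsf genes, with a median of 16.03. The medians were 0.994 in Hnrnp, 0.513 in Lsm, 0.126 in Sf3 and 0 in Snrp genes. The highest values in these groups were 2.55, 3.60, 0.986 and 3.26, so the lowest Srsf gene lay close to them. Pairs were counted over the whole coding sequence and not in the tail alone. Srsf5 had 49 such pairs in 270 codons. The stretch of 120 bases richest in them, coding bases 550 to 669, is shown with the codons of these pairs in capitals, to make the repeat visible.
Srsf5 coding stretch: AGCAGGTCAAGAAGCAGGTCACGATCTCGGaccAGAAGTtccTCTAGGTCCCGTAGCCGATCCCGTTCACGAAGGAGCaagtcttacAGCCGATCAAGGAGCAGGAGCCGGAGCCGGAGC

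Srsf5 (chromosome 12, 80945504 to 80950507, GRCm38) stood at 199, 218 and 193 FPKM in irradiated libraries, against 145, 146 and 175 FPKM in control libraries. All irradiated values lay above all control values, and control replicate 3 was the highest of the controls. The log2 change was 0.39 ± 0.08 (SE), with a limma adjusted p of 0.00455. It was the largest log2 rise among the members, and it passed in all 6 fits that left out a library and in all 8 other alternatives, with log2 changes of 0.34 to 0.48 and adjusted p from 0.000388 to 0.0444.

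Other Srsf genes did not pass. Srsf2, which activates many exons, averaged 116 ± 7.14 FPKM in irradiated and 107 ± 5.97 FPKM in control libraries (SD, n = 3 each), with a 95% interval of the log2 change of -0.01 to 0.26. Srsf3, the smallest family member by coding length at 164 codons, averaged 105.0 ± 5.48 FPKM in irradiated and 102.7 ± 6.51 FPKM in control libraries (interval -0.10 to 0.17). Srsf10, an SR protein that represses splicing once it loses its phosphates, had the lowest change of the group at -0.21 ± 0.09. Its values were 16.3, 15.7 and 14.0 FPKM in irradiated libraries, against 17.0, 17.7 and 18.95 FPKM in control libraries, and these did not overlap (limma adjusted p = 0.145). Srsf12 was at 0.159, 0 and 0.0898 FPKM in irradiated libraries, against 0.293, 0.167 and 0.0890 FPKM in control libraries, and was too low to be tested.

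Control replicate 3 stood apart from the other controls in this family. It held the highest of the 3 control values in 9 of 10 tested Srsf genes, where it did so in 4338 of all 10666 tested genes. The median deviation from the 6-library mean over the Srsf genes was 0.03 to 0.04 in the irradiated libraries, against -0.07, -0.06 and 0.08 in control replicates 1, 2 and 3. Over all tested genes these controls stood at 0.01, 0.01 and 0.03. Such a spread was not particular to this family, as over the Snrp genes they stood at 0.03, 0.09 and -0.04. Without control replicate 3 Srsf6 joined Srsf5 among the genes that rose. Srsf6 stood at 73.3, 69.9 and 69.1 FPKM in irradiated libraries, against 61.2, 60.4 and 71.5 FPKM in control libraries, and was chosen after its values were seen.

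**Figure D2:**
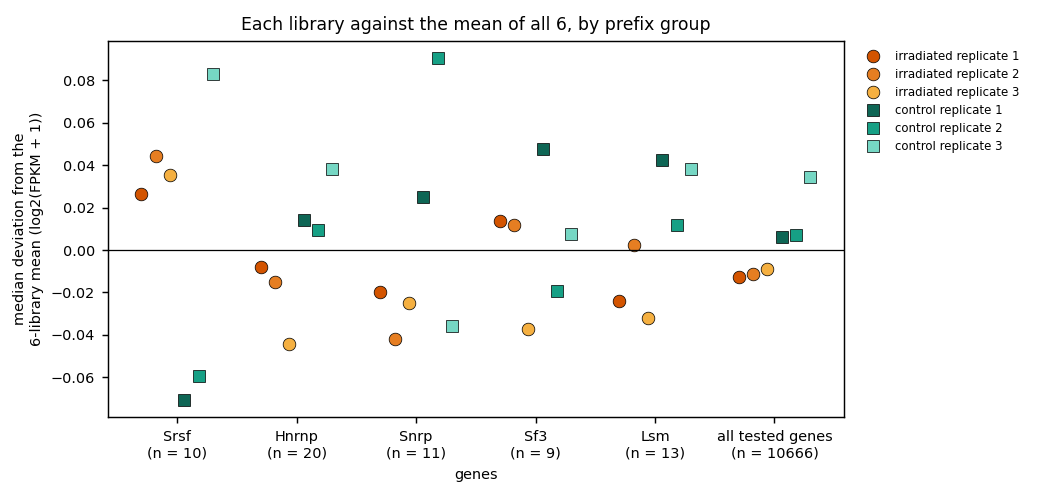
Median over the tested genes of each prefix group, and over all tested genes, of each library's deviation from the gene's mean over the 6 libraries (log2(FPKM + 1)). Circles are irradiated and squares control libraries, and control replicate 3 stands at 0.08 for the Srsf genes, apart from the other controls at -0.07 and -0.06.

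Of the 20 tested Hnrnp genes 4 were called, a share of 20.0% that lies near the 16.6% of all tested genes and the 19.96% of those with a mean of at least 10 FPKM. Glycine-rich tails are known from several hnRNPs, and glycine codons made up 7.03% to 27.5% of the codons of the 20 coding Hnrnp genes, with a median of 13.7%, against a median of 7.41% in Srsf genes. Hnrnpa2b1, which binds nascent transcripts and is known for sorting RNAs for transport, had 24.4% glycine codons. Its stretch of 120 bases richest in them, coding bases 736 to 855, is shown with glycine codons in capitals, for comparison with the Srsf5 repeat.
Hnrnpa2b1 coding stretch: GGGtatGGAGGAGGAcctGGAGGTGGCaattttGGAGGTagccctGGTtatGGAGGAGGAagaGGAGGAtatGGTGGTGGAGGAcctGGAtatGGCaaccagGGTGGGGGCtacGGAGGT

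Hnrnpc had the largest log2 fall of any member. It encodes a protein that binds uridine tracts and packs nascent RNA (chromosome 14, 52073377 to 52104028, GRCm38). Its values were 57.6, 54.5 and 56.7 FPKM in irradiated libraries, against 76.4, 71.1 and 70.3 FPKM in control libraries. The groups were far apart relative to their spread, with a log2 change of -0.36 ± 0.06 (SE) and a limma adjusted p of 0.00155. It passed in all 6 fits that left out a library and in all 8 other alternatives, at log2 changes of -0.38 to -0.32 and adjusted p of 0.000953 to 0.0196. Its close relative Raly averaged 132 ± 5.17 FPKM in irradiated and 157 ± 14.3 FPKM in control libraries (SD, n = 3 each) and fell too, with a log2 change of -0.25 ± 0.07 and a limma adjusted p of 0.0283. Raly no longer passed in 4 of the 6 leave-one-out fits, where its adjusted p reached 0.115, or in 3 of the 8 other alternatives.

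The other Hnrnp calls were smaller and less stable. Hnrnpa2b1 (chromosome 6, 51460932 to 51469894), the most abundant member, stood at 290.0, 288 and 295 FPKM in irradiated libraries, against 321, 323 and 319 FPKM in control libraries. These values did not overlap, and the log2 change was -0.14 ± 0.04 (SE, limma adjusted p = 0.0358). Hnrnpm, a splicing regulator (chromosome 17, 33646233 to 33686860), stood at 158, 154 and 154 FPKM in irradiated libraries, against 173, 169 and 176 FPKM in control libraries, with a log2 change of -0.15 ± 0.05 (adjusted p = 0.0408). In GENCODE M21 its exons overlap those of March2 on the same strand, so reads there cannot be assigned to one gene. Hnrnph1, which binds runs of guanine (chromosome 11, 50376990 to 50386528), rose. It stood at 92.9, 94.98 and 101 FPKM in irradiated libraries, against 75.6, 76.9 and 91.0 FPKM in control libraries, with a log2 change of 0.25 ± 0.07 (adjusted p = 0.0424). Control replicate 3 was again the highest of the controls. Leaving out a library ended the Hnrnpa2b1 and Hnrnph1 calls in 5 of 6 fits each and the Hnrnpm call in 6 of 6, at limma adjusted p up to 0.119, 0.158 and 0.112. Only the fit without control replicate 3 kept Hnrnpa2b1 and Hnrnph1. With median-of-ratios scaling Hnrnpa2b1 and Hnrnpm had adjusted p of 0.141 and 0.118.

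**Figure D3:**
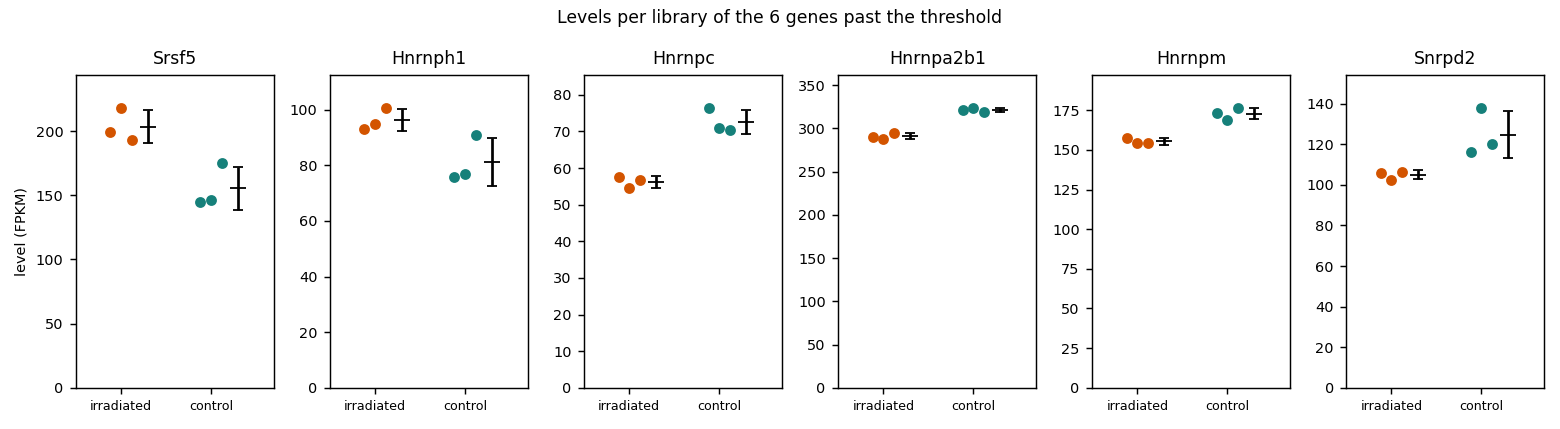
Level in FPKM of the 6 members past the threshold in each irradiated (orange) and control (green) library, with the mean and SD of each group in black (n = 3). Srsf5 and Hnrnph1 are higher and Hnrnpc, Hnrnpa2b1, Hnrnpm and Snrpd2 lower in irradiated libraries, and in no panel do the points of the groups overlap.

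Among Hnrnp genes that did not pass, Hnrnpa1, a regulator that competes with SR proteins, averaged 231 ± 3.799 FPKM in irradiated and 247 ± 11.1 FPKM in control libraries (SD, n = 3 each), with a 95% interval of the log2 change of -0.20 to 0.01. It passed as lower with quantile normalization (log2 change -0.12, limma adjusted p = 0.0380), and not in the other alternatives run. Hnrnpab averaged 204 ± 0.913 FPKM in irradiated and 221 ± 11.7 FPKM in control libraries (interval -0.23 to -0.01, limma adjusted p = 0.139), and passed without control replicate 3. Hnrnpll, known for the exclusion of CD45 exons in activated T cells, was chosen for that role after its values were seen. It stood at 35.8, 43.3 and 35.3 FPKM in irradiated libraries, against 35.9, 34.2 and 39.8 FPKM in control libraries, and the groups overlapped (interval -0.15 to 0.25). The pseudogene Hnrnpa1l2-ps2 was at 0.376, 0 and 0.486 FPKM in irradiated libraries, against 0.496, 0.604 and 0.337 FPKM in control libraries, and was not tested. Abundant small genes of these families are known to have processed pseudogenes, with which reads can be shared.

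Of the 7 genes of the Sm ring 1 fell and 0 rose, a share of 14.3% near the 16.6% of all tested genes. Snrpd2, which encodes Sm protein D2 (chromosome 7, 19149722 to 19153542), stood at 106, 103 and 107 FPKM in irradiated libraries, against 116, 138 and 120.2 FPKM in control libraries. Control replicate 2 was the highest by a wide margin, and the log2 change of -0.24 ± 0.07 (SE, limma adjusted p = 0.0275) shrank to -0.17 (adjusted p = 0.104) without it. It did not pass in 4 of the 6 leave-one-out fits, nor with median-of-ratios scaling (adjusted p = 0.0631). Snrpd3, which encodes Sm protein D3, stood at 128, 108 and 134 FPKM in irradiated libraries, against 108, 105 and 109.9 FPKM in control libraries. Its change of 0.19 ± 0.07 did not pass (adjusted p = 0.105), but did without irradiated replicate 2 (adjusted p = 0.0106). The ratio of Snrpd2 to Snrpd3 within a library, chosen after the values were seen, was 0.828, 0.947 and 0.793 in irradiated libraries and 1.08, 1.32 and 1.09 in control libraries. The pair joins the lowest and the highest change of the ring. Snrpd2 alone did not overlap between the groups, so the lack of overlap of the ratio is no separate result. The whole ring summed to 824 ± 17.9 FPKM in irradiated and 847 ± 43.9 FPKM in control libraries (SD, n = 3 each), and these sums overlapped. As a share of all FPKM it was 0.168% to 0.176% in irradiated and 0.178% to 0.191% in control libraries, without overlap. A set of constant FPKM would also give lower shares without overlap, because the library totals were higher in irradiated libraries. Snrpg, the most abundant of its genes, averaged 203 ± 12.3 FPKM in irradiated and 216 ± 10.6 FPKM in control libraries (95% interval of the log2 change -0.22 to 0.04), and Snrpb 135 ± 3.37 FPKM in irradiated and 142 ± 6.30 FPKM in control libraries (interval -0.18 to 0.05).

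The 4 genes specific to the U1 and U2 particles, Snrpa, Snrpc, Snrpa1 and Snrpb2, had changes of -0.14 to -0.04 and none passed. Snrpa1 had a wide spread in irradiated libraries, at 49.99, 30.2 and 30.3 FPKM, against 42.8, 36.1 and 39.9 FPKM in control libraries. Without irradiated replicate 1, which held the highest value, it passed as lower, and it was named after its values were seen.

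Branch point genes of the SF3 complexes gave 0 calls in either direction, and the largest changes were opposite in sign within SF3B. Sf3b4 had a log2 change of 0.18 ± 0.11 (SE, limma adjusted p = 0.328) and Sf3b5, its smallest subunit, one of -0.17 ± 0.08 (adjusted p = 0.155). Sf3b1, the subunit that clasps the branch point and is often mutated in myeloid malignancy, stood at 72.6, 72.4 and 73.4 FPKM in irradiated libraries, against 73.3, 65.0 and 74.8 FPKM in control libraries. Those values overlapped, with a 95% interval of the log2 change of -0.10 to 0.18. Sf3b2 was the most abundant gene of the group, at 127 ± 0.726 FPKM in irradiated and 124 ± 4.44 FPKM in control libraries (SD, n = 3 each). Sf3a1, named after its values were seen, was the single SF3 gene without overlap, at 25.5 ± 0.813 FPKM in irradiated and 28.3 ± 0.109 FPKM in control libraries (adjusted p = 0.172). The SF3A genes summed to 111 ± 1.31 FPKM in irradiated and 111 ± 3.26 FPKM in control libraries.

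Lsm genes were the least abundant group, with means of 3.06 FPKM (Lsm11) to 59.4 FPKM (Lsm3), and 0 of 13 passed. The 8 genes of the rings on U6 RNA and on decapping substrates summed to 261 ± 3.25 FPKM in irradiated and 260.3 ± 10.96 FPKM in control libraries (SD, n = 3 each). As a share of all FPKM the direction turned, at 0.0539% ± 0.000485 in irradiated and 0.0562% ± 0.00147 in control libraries, as the library totals were higher in irradiated libraries. Lsm5, a member of both rings, stood at 39.7, 47.9 and 51.7 FPKM in irradiated libraries, against 40.8, 39.8 and 39.5 FPKM in control libraries. Irradiated replicate 1 lay among the controls, and the change of 0.20 ± 0.09 passed only in the fit without that library (limma adjusted p = 0.156 with it and 0.0184 without it). Lsm10, part of the U7 particle that trims histone messenger RNA, stood at 10.7, 8.76 and 14.2 FPKM in irradiated libraries, against 13.2, 13.1 and 14.1 FPKM in control libraries. Its change of -0.27 ± 0.14 passed only without irradiated replicate 3 (adjusted p = 0.242 with it and 0.0329 without it). Lsm3 averaged 60.2 ± 7.37 FPKM in irradiated and 58.7 ± 7.21 FPKM in control libraries (95% interval of the log2 change -0.19 to 0.26). Lsm8, which marks the nuclear ring, averaged 44.5 ± 2.08 FPKM in irradiated and 47.6 ± 1.06 FPKM in control libraries (interval -0.23 to 0.04), and Lsm14a, a protein of cytoplasmic granules, 43.7 ± 1.71 FPKM in irradiated and 43.5 ± 0.868 FPKM in control libraries (interval -0.13 to 0.14).

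Other genes of RNA processing also changed little. Of 166 tested genes in 11 further lists 2 rose and 6 fell, which is 4.82% of those tested and lies below the 16.6% of all tested genes, with a median log2 change of -0.03. The Prp19 complex, which activates the assembled spliceosome, and its relatives had 3 of 15 genes lower and 0 higher. That share of 20.0% lies near the 16.6% of all tested genes. Snw1, which encodes a protein of the catalytic core, stood at 38.4, 39.9 and 43.0 FPKM in irradiated libraries, against 54.5, 47.6 and 50.8 FPKM in control libraries. Its groups did not overlap, and the change of -0.33 ± 0.07 (SE, limma adjusted p = 0.00934) passed in all 6 leave-one-out fits and in all 8 other alternatives. Cdc5l, a scaffold of the same complex, changed by -0.36 ± 0.08 (adjusted p = 0.0101), a call lost without control replicate 1 (adjusted p = 0.0514). The third, Isy1, changed by -0.23 ± 0.06 and was named after its values were seen.

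The other 5 calls came from 4 more of these lists. The spliceosomal helicase gene Dhx16 rose by 0.31 ± 0.07 (limma adjusted p = 0.0120), a call lost without control replicate 1 (adjusted p = 0.0559), and Smg5, a factor of nonsense-mediated decay, rose by 0.29 ± 0.08 (adjusted p = 0.0381). Among 28 other splicing regulators Raly and Nono fell, and Nono, a paraspeckle protein, stood at 115 ± 0.353 FPKM in irradiated and 132 ± 1.104 FPKM in control libraries (SD, n = 3 each). The decapping helicase gene Ddx6 changed by -0.19 ± 0.06 (adjusted p = 0.0487). Leaving out a library ended the Smg5 call in 5 of 6 fits and the Ddx6 call in 6 of 6. No gene was called among 13 U2 auxiliary and branch point factors, 15 U5 and tri-snRNP proteins, 20 SR protein kinases and related proteins, 14 snRNP assembly factors, 18 cleavage and polyadenylation factors and 9 minor spliceosome genes, where limma gave an unadjusted p below 0.05 for 0, 2, 1, 1, 1 and 1 of them.

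**Figure D4:**
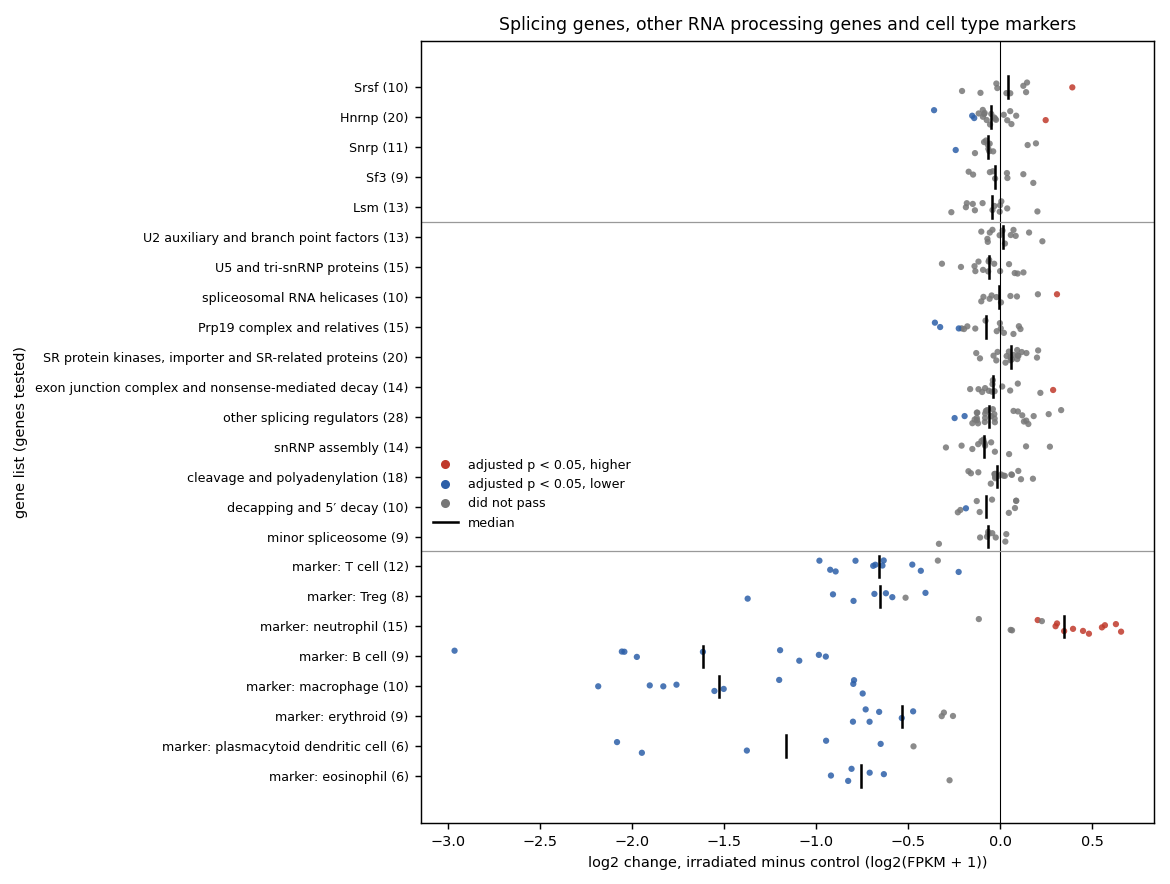
Log2 change (irradiated minus control) of each tested gene in the 5 prefix groups (top), 11 lists of other RNA processing genes (middle) and 8 lists of cell type markers (bottom), with the median of each list as a black bar. The prefix groups have medians of -0.07 to 0.04, while the neutrophil markers have one of 0.35 and the macrophage markers one of -1.53.

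The promoters of the 2 members whose calls held in every alternative run, Srsf5 and Hnrnpc, carry different motifs. The 150 bases before the start were taken from RefSeq on GRCm38.p6, with the first listed start of each gene, and 56 of the 65 members matched. The Srsf5 window is chr12:80945349-80945498 on the forward strand and the Hnrnpc window chr14:52104022-52104171 on the reverse strand. Capitals mark matches on either strand to the GC box GGGCGG and the ETS motif CCGGAAG in Srsf5, which overlap at their last match, and to the CCAAT box CCAAT in Hnrnpc.
Srsf5 upstream: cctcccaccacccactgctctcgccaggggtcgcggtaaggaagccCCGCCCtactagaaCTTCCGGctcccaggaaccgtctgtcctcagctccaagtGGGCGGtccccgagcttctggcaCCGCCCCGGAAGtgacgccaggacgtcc
Hnrnpc upstream: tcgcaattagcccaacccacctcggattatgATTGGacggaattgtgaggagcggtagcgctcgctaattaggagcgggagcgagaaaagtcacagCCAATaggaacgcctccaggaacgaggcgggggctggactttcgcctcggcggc

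A CCAAT match lay in 20 of the 56 member windows (35.7%), against 25.3% of all 27025 windows and 29.4% of the 8681 windows of tested genes. The GC box lay in 53.6% of member windows, against 29.0% of all and 54.0% of those of tested genes, and the ETS motif in 19.6%, against 5.68% and 12.6%. By prefix group the CCAAT box was in 11 of 19 Hnrnp windows and in 3 of 11 Srsf windows, the GC box in 8 of 19 and 10 of 11, and the ETS motif in 5 of 7 Sf3 windows. The CRE (TGACGTCA) was in 2 member windows and TATAAA in 3, while the NRF1 and YY1 motifs were in 0 of these windows. Matches are a description of these letters and were not tested.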

How the data were processed

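The authors deposited 1 table per library, whose values were read as FPKM. The submitters' processing notes name the tools fastp, HISAT2 and StringTie, and GRCm38 and mm10 as builds. Not given in the sources used here are tool versions, settings and annotation. The kit was TruSeq Stranded mRNA, per the labels' protocols. Values are per gene, so isoforms were not separated. Column totals ran from 451444 to 485365 FPKM, but absolute depth is unknown. The relative depth was the scaling between libraries that made the most values below 0.1 FPKM fractions of integers no larger than 6 (tolerance 0.001), met by 128 to 209 of 225 to 341 genes per library.

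Genes that averaged 1 FPKM or more entered limma 3.58.1 (lmFit, eBayes with trend; R 4.3.3) as log2(FPKM + 1), two-sided, with Benjamini-Hochberg adjustment over all tested genes. This scale understates the change of low genes. The test was checked on simulated data. Tables and plots used Python 3.11.15, pandas 2.3.3, numpy 2.4.6 and matplotlib 3.10.9. Coordinates and coding sequences are from GENCODE M21 (GRCm38).

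Members and lists were chosen with earlier results of these data known. Named members were those past the threshold, the 3 most abundant and the largest and smallest change of each prefix group, and those not tested. In other lists up to 2 genes per direction were named. The fit was repeated with array weights, with no variance trend, with the replicate number as a block, with quantile normalization or median-of-ratios scaling, with a filter at 5 FPKM or none, with 0.1 as pseudocount, and without each library. In GENCODE M21, 22 members share exonic bases with another coding or long noncoding gene, 18 of them with one on the opposite strand, and the strand setting of the counting is not given.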

Additional observations from a re-analysis of the deposited data

How the results depend on the processing

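Of the 6 calls among members, 6 were kept with a pseudocount of 0.1, with a minimum mean of 5 FPKM and with array weights. The 2 members higher became 1 without the filter and 1 without the trend, as the Hnrnp genes higher became 0 under both. The 4 members lower became 1 with median-of-ratios scaling, 1 without the trend and 2 with the replicate block, the 3 Hnrnp genes lower became 1 under each of these, and the 1 Snrp gene lower became 0 without the filter, with median-of-ratios scaling and without the trend. Median log2 changes with median-of-ratios scaling were -0.020 for Hnrnp, 0.0043 for Sf3 and -0.012 for Lsm genes, and with quantile normalization -0.035 for Hnrnp and -0.012 for Lsm genes. The cause of these differences was not tested. Quantile normalization kept all 6 calls and added Hnrnpa1. That scaling and quantile normalization moved the median of all genes by 0.03 and 0.04.

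Leaving out 1 library gave 414 to 684 genes higher and 722 to 978 lower over all genes, the fewest of both without control replicate 2. Among members it gave 1 to 3 higher and 1 to 4 lower. By prefix group it gave 1 to 2 Srsf genes higher, 0 to 1 Hnrnp genes higher and 1 to 3 lower, 0 to 1 Snrp genes higher and 0 to 1 lower, and 0 to 1 Lsm genes higher and 0 to 1 lower. The medians ran from -0.077 to -0.037 for Hnrnp and from -0.085 to -0.029 for Lsm genes. The deviations of same-numbered libraries from their group means correlated at 0.01, -0.04 and -0.02 across genes. Such correlations cannot decide whether same-numbered libraries were paired in their preparation. With the replicate block 558 genes were higher and 948 lower, 4 of the 6 member calls were kept, and Hnrnpa2b1 (adjusted p = 0.0858) and Hnrnpm (adjusted p = 0.0842) did not pass. Over the 30 genes followed by name, 0 called changes turned sign. Uncalled members with changes of up to 0.15 could change sign when a library was left out.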
